A study of Mus musculus with 4 samples.

Results

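Interleukins are secreted or membrane-held proteins through which leukocytes instruct each other, and each acts through a receptor of 1 or more chains at the surface of the responding cell. In helper T cells these receptors decide which signal a cell can answer. IL-12 and IL-18 act on cells of the type 1 response, IL-33 and IL-25 on those of the type 2 response, and IL-6, IL-27 and IL-10 act broadly through the Janus kinases (JAK) and the STAT factors they phosphorylate. The genes described here are those whose symbol in the count files begins with Il and a digit, without *Il4*, *Il5*, *Il13*, *Il7r*, *Il2ra*, *Il2rb*, *Il2rg*, *Il4ra*, *Il15ra*, *Il21r* and *Il9r*. Of 55367 gene symbols, 83 had such a name and 72 remained once these 11 were set aside. They comprise 34 ligands, 33 receptor chains and 5 others, namely the receptor antagonists *Il1rn* and *Il1f5*, the IL-18 binding protein gene *Il18bp*, the enzyme gene *Il4i1* and the noncoding transcript *Il1bos*.

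RNA was taken from sorted CD4+ T cells of the spleen, from C57BL/6 mice. There were 2 libraries labelled WT and 2 labelled *Satb1* conditional knockout (cKO). SATB1 is a nuclear protein that folds chromatin and controls transcription in T cells. In the cKO mice both *Satb1* alleles were floxed and *Thpok-cre* drove Cre recombinase, so deletion is expected in cells of the CD4 lineage from the stage at which they commit to it. The comparison asks which transcripts depend on SATB1 in mature CD4+ T cells. For the WT libraries the labels give no allele or transgene beyond the name, and for no library do they give an age, a sex or a treatment. The study's methods describe adult mice of mixed sexes. Cells were sorted without separating conventional from regulatory T (Treg) cells. The study's methods list a B cell antigen and CD8, besides CD4, among the targets of antibodies for lineage gating. How this sort was gated is not stated.

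Total gene counts ran from 4495902 to 6555699 per library, and 59.4% to 64.5% of the reads placed at a single site were assigned to no feature in counting. Where those reads lay, in introns or elsewhere, is not given. *Satb1* did not separate the labels, at 922 ± 81.2 CPM (SD, n = 2) in WT and 892 ± 68.7 CPM (SD, n = 2) in cKO. These counts are per gene and not per exon, so whether the floxed part was lost was not tested. *Foxp3* did separate them, at 141 and 120 CPM in WT against 404 and 545 CPM in cKO (edgeR adjusted p = 0.000447). Higher *Foxp3* is what the study reports for splenic CD4+ T cells that lack SATB1. WT and cKO below name libraries only as they were labelled. CPM is the usual unit for a gene's count relative to the total gene count of its library, here with the totals adjusted by the TMM method. *Xist* had 5447 and 4235 counts in WT against 9 and 6 in cKO. The Y-linked *Ddx3y* had 0 in WT against 525 and 597 in cKO. Sex and genotype thus cannot be told apart in the *Foxp3* values or in any value below. The T cell marker list (*Cd3e*, *Cd3g*, *Trac*, *Cd4*, *Thy1* and *Lck*) summed to between 5271 and 5876 CPM in every library. In that list 1 gene was called, *Thy1*, which fell from 1179 and 1153 CPM to 749 and 766 CPM (edgeR adjusted p = 0.0169), and the call was lost without WT 1 (0.131) and without WT 2 (0.232). *Trac* was higher in both cKO libraries and was not called (edgeR adjusted p = 0.242). The sums of B cell, myeloid cell and neutrophil markers were far lower but higher in the cKO libraries, above all in cKO 1. Not every marker followed its sum. *Itgam*, a myeloid marker, was lower in both cKO libraries, at 2.13 and 2.23 CPM in WT and 1.33 and 1.06 CPM in cKO. Others overlapped between the genotypes, among them *Csf1r* and *Cd79b*, and *Cybb* was higher in cKO 2 (15.5 CPM) than in cKO 1 (13.1 CPM). The 7 neutrophil markers summed to 0 and 3.79 CPM in WT and to 41.7 and 24.3 CPM in cKO, with 3 called higher. These 3, *S100a9*, *Ltf* and *Ngp*, passed the low-count filter described below through the cKO libraries alone, so their passing already favoured a difference. The other sums stand beside the results they bear on.

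Most of these genes were silent or nearly so in resting CD4+ T cells. A low-count filter, which required about 2 CPM in at least 2 libraries, was passed by 22 of the 72 genes. These were 3 ligands, 17 receptor chains, *Il18bp* and *Il4i1*. *Il4i1* reached that level in the cKO libraries alone, so its passing already favoured a difference. A further 27 genes had 0 counts in all 4 libraries, where a count of 0 allows a level of up to 0.458 to 0.667 CPM depending on the library (3 counts, covering counting error only).

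**Figure D1:**
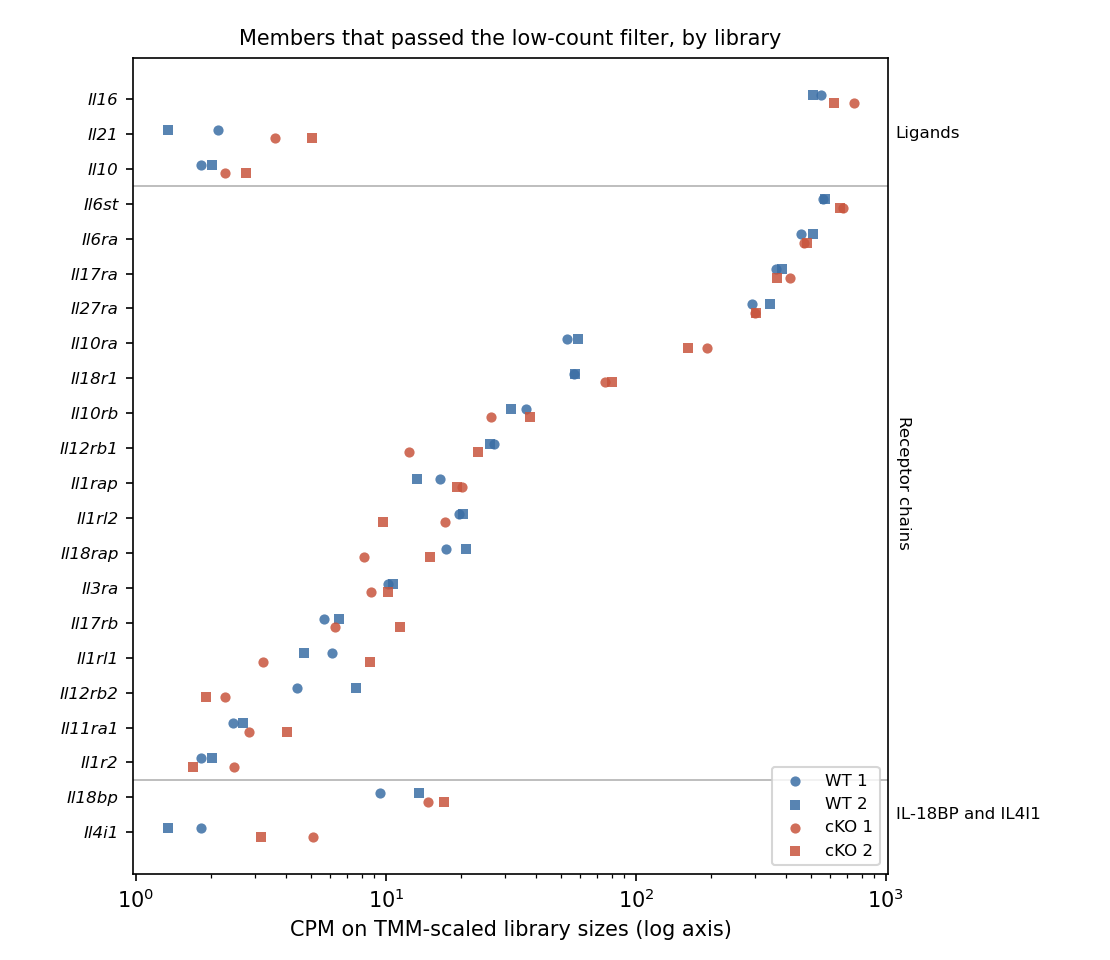
Level of each gene that passed the low-count filter in each of the 4 libraries, as CPM on a log axis; circles are replicate 1, squares replicate 2, blue WT and red cKO. *Il10ra* shows the widest space between the colours, with WT at 52.8 and 58.9 CPM and cKO at 192 and 161 CPM.

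Among the ligands, transcripts of 1 gene predominated. *Il16* encodes a precursor that T cells make constitutively and from which a chemoattractant for CD4+ cells is cut. Per kilobase of exonic sequence it held between 92.5% and 93.7% of the summed ligand level in each library. It was at 549.6 and 513 CPM in WT and at 744 and 619 CPM in cKO. Both cKO libraries thus lay above both WT libraries, with a log2 fold change of 0.36 and an SE of 0.12, and the difference did not pass the threshold (edgeR quasi-likelihood adjusted p = 0.150). It passed without the low-count filter (edgeR adjusted p = 0.0227) and without cKO 2 (edgeR adjusted p = 3.75e-05), over a range from 3.75e-05 to 0.736 across all alternatives. Of its 7865 exonic bases, 1368 lie opposite other genes, mostly *Stard5*, which was itself at 381 CPM in WT and 489.7 CPM in cKO with a log2 fold change of 0.36. Whether strand was used in counting is not given, and the part of *Stard5* reads in the *Il16* value was not tested.

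The other ligands that passed the filter were *Il10* and *Il21*, both near its lower limit. *Il10* encodes the anti-inflammatory cytokine IL-10, which Treg cells and other helper T cells secrete. It had 12 and 9 counts in WT and 12 and 13 in cKO. Its change on the log2 scale was 0.39, with an interval from -0.56 to 1.35 (edgeR adjusted p = 0.675), so any fold from 0.68 to 2.54 lies within the interval, and no difference was detectable at this depth.

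*Il21* encodes the helper cytokine that follicular helper T cells supply to B cells. Its counts were 14 and 6 in WT and 19 and 24 in cKO, which is 2.13 and 1.34 CPM against 3.61 and 5.08 CPM. The groups did not overlap, and the log2 fold change of 1.26 (SE 0.43) had an edgeR unadjusted p of 0.0164 and an adjusted p = 0.149. In none of its 11 alternatives did it pass the threshold.

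No ligand was called, by edgeR or by DESeq2, and 2 of the 3 that were tested, *Il16* and *Il21*, had an edgeR unadjusted p under 0.05, as did 19.1% of all tested genes. Of the 31 ligands that did not pass the filter, 18 had no count at all. These included *Il6*, *Il9*, *Il22*, *Il3* and *Il17f*, whose products activated helper T cells among others can secrete, and *Il33* and *Il25*, which are known chiefly from epithelial and other tissue cells. *Il2*, the T cell growth factor, had 9 and 4 counts in WT and 15 and 2 in cKO, with the cKO libraries on both sides of WT. The remaining 12 had at most 6 counts in any library. *Il17a*, the defining product of Th17 cells, had 1 count in WT 2 and 0 elsewhere, and *Il1b*, a product of myeloid cells, had 5 counts in cKO 1 and at most 1 elsewhere.

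Of the 17 receptor chains tested, 1 was called, and it was higher in cKO. Over all 12403 genes tested, 4.30% were called in either direction and 2.35% were called higher and 1.95% lower, so the number of calls among the receptor chains is near the background. The called gene was *Il10ra*.

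*Il10ra* (chromosome 9, 45253837 to 45269149, minus strand of GRCm38, the assembly also called mm10) encodes the ligand-binding chain of the IL-10 receptor. It had 347 and 264 counts in WT against 1012 and 761 in cKO, or 52.8 and 58.9 CPM against 192 and 161 CPM. The space between the genotypes was far wider than that between replicates. Expression averaged 55.9 ± 4.28 CPM (SD, n = 2) in WT and rose to 177 ± 21.9 CPM (SD, n = 2) in cKO. The log2 fold change was 1.66 (SE 0.13, edgeR quasi-likelihood adjusted p = 0.000272). The fold was 3.17 with an interval from 2.60 to 3.87. No other annotated gene shares exonic sequence with *Il10ra*. In all 11 alternatives it stayed past the threshold with an edgeR or DESeq2 adjusted p from 1.20e-32 to 0.000946, and when each library was left out in turn the log2 fold change lay between 1.53 and 1.79.

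As the libraries are bulk RNA, more cells of a type and more RNA per cell cannot be told apart. B cells and myeloid cells also express *Il10ra*, and the summed level of 9 B cell markers was 10.7 and 13.8 CPM in WT against 55.4 and 16.3 CPM in cKO. In that list 3 genes were tested and 1, *Pax5*, was called higher. *Pax5* passed the filter through the cKO libraries alone, so its passing already favoured a difference. The 9 myeloid markers summed to 35.0 and 42.6 CPM in WT and 105 and 61.8 CPM in cKO. Of the 7 tested, 3 were called higher, and *Itgam* was lower in both cKO libraries without being called. Each of these sums is highest in cKO 1, as is *Il10ra*, and the part of these cells in the *Il10ra* value was not tested. Without cKO 1 the log2 fold change of *Il10ra* was 1.53 (edgeR adjusted p = 1.04e-07). The Treg marker list (*Foxp3*, *Il2ra*, *Ctla4*, *Ikzf2*, *Ikzf4*, *Nrp1* and *Tnfrsf18*) moved as well, from 477 and 403 CPM in WT to 859.7 and 1081 CPM in cKO with 4 of 7 genes called higher. The sum was higher in cKO 2 than in cKO 1, and its largest member was *Foxp3*, at 404 CPM in cKO 1 and 545 CPM in cKO 2. The study reports *Foxp3* derepressed in conventional CD4+ T cells without SATB1, so this sum does not measure Treg cells alone. The other called genes, *Ctla4* (104 and 101 CPM), *Nrp1* (38.7 and 38.3) and *Tnfrsf18* (99.8 and 90.2), were not higher in cKO 2. The part of Treg cells in the *Il10ra* value was not tested.

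**Figure D2:**
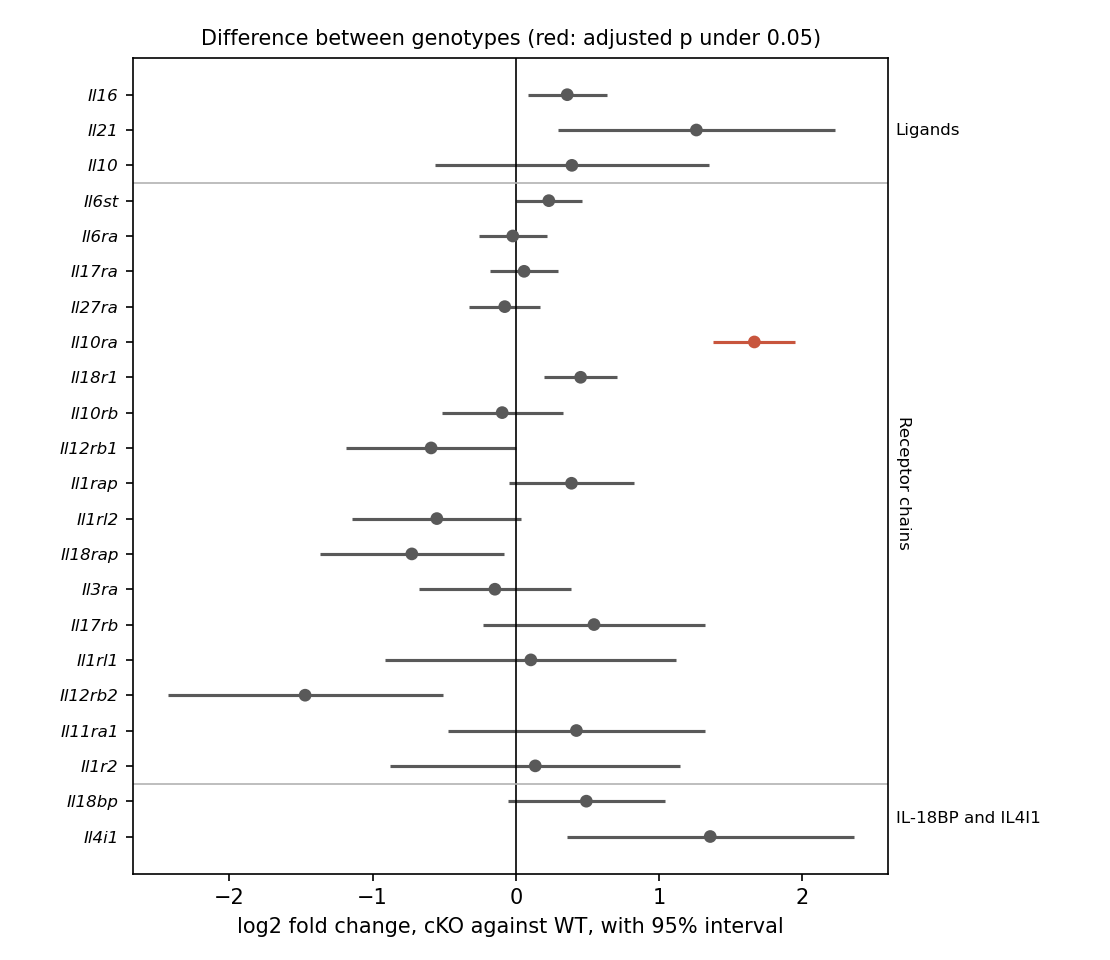
Log2 fold change of each gene that passed the low-count filter, cKO against WT, with its 95% interval from the edgeR fit; the gene in red passed an adjusted p under 0.05. *Il10ra* alone is red, at 1.66, while the intervals of the abundant chains *Il6ra*, *Il17ra* and *Il27ra* are narrow and contain 0.

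The partner chain of the IL-10 receptor did not move with it. *Il10rb*, which also serves the receptors of IL-22 and type III interferons, was at 36.2 and 31.7 CPM in WT and at 26.4 and 37.7 CPM in cKO. The WT values lay between the cKO values, and the change on the log2 scale was -0.10, with an interval from -0.52 to 0.33 (edgeR adjusted p = 0.835). Per kilobase of exon, *Il10ra* exceeded *Il10rb* by a ratio of 1.59 and 2.02 in the WT libraries and of 7.93 and 4.65 in the cKO libraries. *Il10ra* made up 5.23% and 5.35% of the summed receptor level per kilobase in WT and 16.0% and 13.6% in cKO.

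In the WT libraries the receptor chains with the highest levels per kilobase were those of the IL-6, IL-27 and IL-17 receptors. *Il6st* encodes gp130, the shared signalling chain of the IL-6 family, *Il6ra* and *Il27ra* the chains specific to IL-6 and IL-27, and *Il17ra* the common chain of the IL-17 receptors. Together these 4 genes held 79.5% and 80.6% of the summed receptor level per kilobase in WT and 72.4% and 71.9% in cKO. Their mean levels over the 4 libraries were 88.7 CPM per kilobase for *Il27ra*, 55.7 for *Il6ra*, 55.4 for *Il6st* and 44.2 for *Il17ra*. In the cKO libraries *Il10ra*, at 54.9 and 46.0 CPM per kilobase, lay above *Il17ra*, at 47.6 and 42.4.

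Among these, *Il6ra* was at 458 and 512 CPM in WT and 472 and 483 CPM in cKO, so the cKO values lay inside the WT range. Its fold was 0.98 with an interval from 0.84 to 1.16. *Il27ra*, at 292 and 345 CPM in WT and 301 and 302 CPM in cKO, had a fold of 0.95 with an interval from 0.80 to 1.13. *Il17ra*, at 365 and 385 CPM in WT and 412 and 367 CPM in cKO, had a fold of 1.04 with an interval from 0.88 to 1.23. For these 3 chains a change of 1.5-fold in either direction lies outside the interval. *Il6st* lay at 563 and 569 CPM in WT and at 671 and 656 CPM in cKO, without overlap, and its log2 fold change of 0.23 did not pass (edgeR adjusted p = 0.261). It passed only without cKO 2 (edgeR adjusted p = 0.0379), in a range from 0.0379 to 0.815 over its alternatives.

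**Figure D3:**
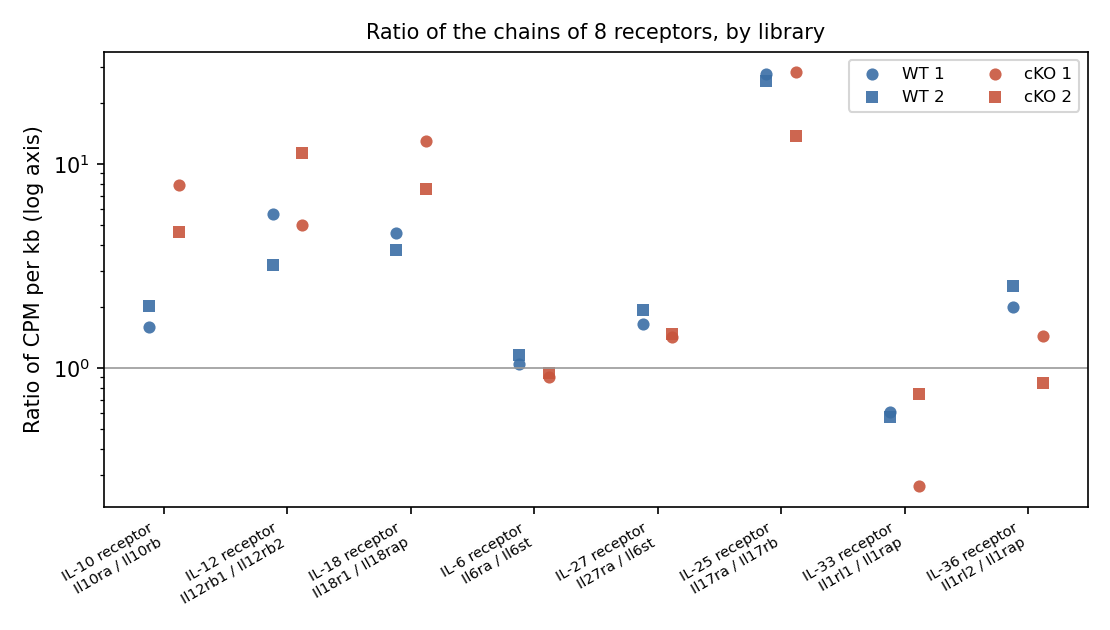
Ratio of the levels per kilobase of exon of the named chains of 8 receptors, on a log axis, for each library; circles are replicate 1, squares replicate 2, blue WT and red cKO. For the IL-10 receptor the WT ratios are 1.59 and 2.02 and the cKO ratios 7.93 and 4.65, and for the IL-6 receptor all 4 lie close to 1.

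The chains of the IL-12 receptor were both lower in the cKO libraries, and neither passed the threshold. *Il12rb2* encodes the signalling chain that marks cells committed to the type 1 response. It had 29 and 34 counts in WT against 12 and 9 in cKO, which is 4.42 and 7.59 CPM against 2.28 and 1.90 CPM. On the log2 scale this was -1.47 (SE 0.42, edgeR adjusted p = 0.0962). The adjusted p ran from 0.00525 to 0.602 over the alternatives, and 3 of 11 passed, namely the fit without the low-count filter, the fit with the replicate block (0.0364) and the libraries thinned to the smallest total gene count (0.0484). The gene shares 1519 of its 3794 exonic bases with *Serbp1* on the opposite strand, a gene at 709 CPM in WT and 641 CPM in cKO, and the part of those reads in the low counts of *Il12rb2* was not tested.

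*Il12rb1*, the chain that the IL-12 and IL-23 receptors share, was at 27.1 and 26.1 CPM in WT and at 12.3 and 23.3 CPM in cKO. The lower level was mostly that of cKO 1, and on the log2 scale the change was -0.59 (SE 0.26, edgeR adjusted p = 0.261). Without cKO 1 it was -0.20, and without cKO 2 it was -1.11 and passed (edgeR adjusted p = 0.000152), the lowest of a range that ended at 0.578. It also passed without the low-count filter (0.0357). *Il23r*, the specific chain of the IL-23 receptor, had 3 counts in cKO 2 and 0 in the others.

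The IL-18 receptor chains had fold changes of opposite sign, and neither passed the threshold. *Il18r1* encodes the chain that binds IL-18, and was at 56.8 and 56.9 CPM in WT and at 75.1 and 80.4 CPM in cKO. These pairs were tight and did not overlap, and the log2 fold change of 0.45 (SE 0.11) was just short of the threshold, with an edgeR adjusted p = 0.0613. Over its alternatives the adjusted p ran from 0.0111 to 0.435, and 4 of 11 passed. These were the fit without the low-count filter (0.0442), the replicate block (0.0185), and the fits without cKO 1 (0.0111) or cKO 2 (0.0348).

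*Il18rap*, the accessory chain without which IL-18 does not signal well, was at 17.4 and 20.97 CPM in WT and at 8.16 and 15.03 CPM in cKO. On the log2 scale it changed by -0.73 (SE 0.28, edgeR adjusted p = 0.206), which did not pass. Without cKO 2 it was -1.21 (edgeR adjusted p = 0.000667) and without cKO 1 it was -0.34. It also passed without the low-count filter (0.0199) and with the replicate block (0.0439), and the adjusted p over all alternatives ran from 0.000667 to 0.668. The ratio of *Il18r1* to *Il18rap* per kilobase was 4.59 and 3.80 in WT and 12.9 and 7.50 in cKO, without overlap. *Il18bp*, whose product is a secreted decoy that binds IL-18, was at 9.44 and 13.6 CPM in WT and 14.8 and 17.1 CPM in cKO, with a log2 fold change of 0.49 and an edgeR adjusted p = 0.313. *Il18* itself had at most 6 counts in any library.

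Genes of the marker lists for activated T cells, NK cells and CD8 T cells did not all move alike. *Tbx21*, which encodes T-bet, fell from 26.7 and 20.97 CPM to 9.11 and 14.2 CPM (edgeR adjusted p = 0.0494). This call was lost without WT 1 (0.154), without WT 2 (0.0932), with total-count scaling (0.0533) and in DESeq2 (0.0582). *Eomes*, which encodes the related factor eomesodermin, fell from 39.6 and 32.1 CPM to 11.005 and 16.9 CPM (edgeR adjusted p = 0.0113) and was called in all 11 alternatives. In both, cKO 1 was the lowest library, as it was for *Il12rb1* and *Il18rap* but not for *Il12rb2*. *Cxcr3*, a chemokine receptor of type 1 cells, overlapped between the genotypes, at 53.0 and 53.8 CPM in WT and 30.9 and 59.3 CPM in cKO (edgeR adjusted p = 0.643). The 4 NK cell markers summed to 43.6 and 33.7 CPM in WT and to 13.7 and 17.4 CPM in cKO, and most of that sum was *Eomes*. Of the others, *Klrb1c* had 24 and 7 counts in WT and 11 and 2 in cKO, *Ncr1* had at most 3 in any library and *Klra8* had 0. The 2 CD8 T cell markers summed to 47.5 and 58.2 CPM in WT and to 34.2 and 26.7 CPM in cKO. Most of that sum was *Cd8b1*, which fell from 42.2 and 51.8 CPM to 27.3 and 22.4 CPM (edgeR adjusted p = 0.0201), while *Cd8a* overlapped, at 5.33 and 6.47 CPM in WT and 6.83 and 4.23 CPM in cKO (edgeR adjusted p = 0.941). The *Cd8b1* call was lost without WT 2 (edgeR adjusted p = 0.156). The part of these cells in the chain values was not tested.

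*Il18r1* and *Il18rap* belong to a cluster of 6 receptor genes of the IL-1 family that spans 477.6 kb of chromosome 1, all on the plus strand, in the order *Il1r2*, *Il1r1*, *Il1rl2*, *Il1rl1*, *Il18r1* and *Il18rap*. The end of *Il1rl1* lies 136 bases before the start of *Il18r1*, and 14507 bases part *Il18r1* from *Il18rap*. Of the 5 that passed the filter, 3 had a positive and 2 a negative log2 fold change, and none was called by edgeR. DESeq2 called none of the 4 for which it gave an adjusted p, which left out *Il1r2*. By edgeR, 2 of the 5, *Il18r1* and *Il18rap*, had an unadjusted p under 0.05, as did 19.1% of all tested genes.

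**Figure D4:**
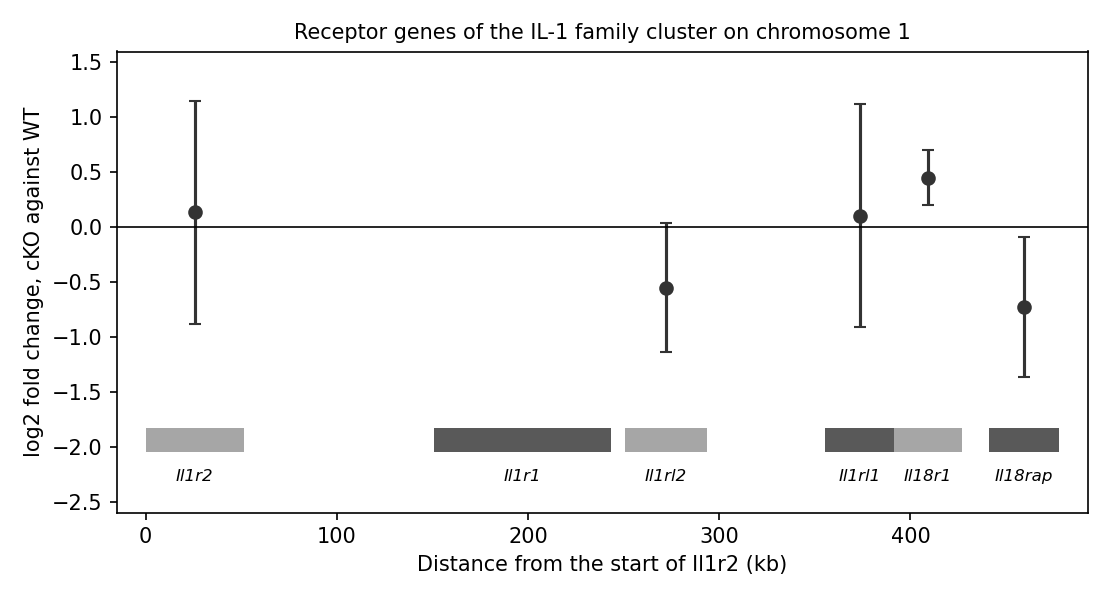
Receptor genes of the IL-1 family cluster on chromosome 1, drawn to scale as bars by distance from the start of *Il1r2* in kb, with the log2 fold change of each (cKO against WT) and its 95% interval above. *Il18r1* at 0.45 and its neighbour *Il18rap* at -0.73 lie on opposite sides of 0, and *Il1r1* did not pass the low-count filter and has no point.

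*Il1rl2*, in the same cluster, encodes the specific chain of the IL-36 receptor. It was at 19.6 and 20.3 CPM in WT and at 17.3 and 9.74 CPM in cKO, and its log2 fold change was -0.55 (edgeR adjusted p = 0.294). The lower level was mostly that of cKO 2. Without cKO 1 the value was -1.04 and passed (edgeR adjusted p = 0.00844), in a range up to 0.693, and without cKO 2 it was -0.21. *Il1rl1* encodes ST2, the IL-33 receptor chain found on type 2 helper cells and on a subset of Treg cells. Its cKO libraries, at 3.23 and 8.68 CPM, lay on both sides of the WT values of 6.09 and 4.69 CPM and differed by 2.69-fold, the widest gap between replicates among the 22 genes that passed the filter.

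*Il1rap* encodes the accessory chain that the IL-1, IL-33 and IL-36 receptors share. It was at 16.4 and 13.4 CPM in WT and at 20.1 and 19.3 CPM in cKO, with a log2 fold change of 0.39 and an edgeR adjusted p = 0.318. *Il1r2*, the decoy receptor of IL-1, had 12 and 9 counts in WT and 13 and 8 in cKO, and *Il1r1*, the signalling receptor, had 8 and 5 in either genotype and did not pass the filter. The receptor antagonist *Il1rn* had at most 4 counts.

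The remaining receptor chains were at low levels and did not differ beyond the threshold. *Il17rb*, which pairs with *Il17ra* to bind IL-25, was at 5.64 and 6.47 CPM in WT and 6.26 and 11.4 CPM in cKO, with only cKO 2 above the rest. *Il3ra*, the specific chain of the IL-3 receptor, was at 10.2 and 10.7 CPM in WT and 8.73 and 10.2 CPM in cKO. Its partner chain *Csf2rb*, which is chiefly a myeloid gene, had 13 and 2 counts in cKO against 0 in WT. *Il11ra1*, the IL-11 receptor chain, had 16 and 12 counts in WT and 15 and 19 in cKO.

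Of the 16 receptor chains that did not pass the filter, 8 had no count in any library. They were *Il11ra2*, *Il13ra2*, *Il17rc*, *Il1rapl1*, *Il1rapl2*, *Il20ra*, *Il22ra1* and *Il22ra2*. *Il11ra2* has 3 gene models of the same name, and reads that fit several places were left out of the counts, so its 0 is uncertain. *Il13ra1* had 3 and 3 counts in WT and 11 and 4 in cKO, and *Il17rd* had 5 and 1 in WT and 3 and 13 in cKO, each high in a single cKO library. *Il5ra*, the specific chain of the IL-5 receptor, had at most 2 counts.

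*Il4i1* encodes a secreted enzyme that degrades aromatic amino acids and restrains T cells. It had 12 and 6 counts in WT against 27 and 15 in cKO, and its log2 fold change of 1.36 (SE 0.44) did not pass (edgeR adjusted p = 0.136). It passed without the low-count filter (edgeR adjusted p = 0.0492) and without cKO 2 (0.0458), in a range up to 0.602. Most of its exonic sequence, 3505 of 4080 bases, lies opposite *Tbc1d17* and *Atf5*, which were at 43.1 and 8.39 CPM in WT and 41.7 and 7.79 CPM in cKO. As B cells and myeloid cells are also known to express it, their markers given above apply here too, and their part in its value was not tested. Of *Il18bp* and *Il4i1*, the 2 genes of the mixed group that were tested, edgeR and DESeq2 called none. *Il4i1*, which passed the filter through the cKO libraries alone, had an edgeR unadjusted p under 0.05, as did 19.1% of all tested genes.

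Over the 22 genes that passed the filter, both cKO libraries were above both WT libraries in 10 and below them in 5, and they overlapped in 7. Over all tested genes the groups were apart in 50.3%, with cKO above in 24.8% and below in 25.4%. The median log2 fold change of the 22 was 0.18, against -0.0015 for all genes tested. Replicates differed by a median of 1.12-fold in WT and 1.21-fold in cKO, and more than 1.5-fold in 2 genes of the former and 6 of the latter.

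The genes that carry interleukin signals were taken from a list of 32 partner subunits, kinases, STAT factors, adaptors and feedback genes. Of these, 27 were tested and 2 were called, 1 in each direction, against 4.30% of all tested genes. *Irak3*, which encodes a brake on IL-1 receptor and Toll-like receptor signals known chiefly from myeloid cells, rose from 3.35 and 3.35 CPM to 16.7 and 7.83 CPM (log2 fold change 1.88, edgeR adjusted p = 0.0383). Like the sum of the myeloid markers it was highest in cKO 1, and the part of myeloid cells in it was not tested. The call was lost without WT 2 (log2 fold change 1.87, edgeR adjusted p = 0.140) and without cKO 1 (log2 fold change 1.22, edgeR adjusted p = 0.0594). *Traf5*, an adaptor known to restrain IL-6 signalling through gp130, fell from 68.5 and 61.6 CPM to 43.6 and 40.8 CPM (log2 fold change -0.63, edgeR adjusted p = 0.0267). This call was lost without WT 1 (0.189), without WT 2 (0.142) and in DESeq2 (0.0609).

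The kinases *Jak1*, *Jak2*, *Jak3* and *Tyk2* were each higher in both cKO libraries than in both WT libraries, and none was called by edgeR or by DESeq2. Over all tested genes 24.8% lay above in this way. By edgeR 3 of the 4 had an unadjusted p under 0.05, as did 19.1% of all tested genes. *Jak2* and *Tyk2* were called without cKO 1, and *Jak3* without cKO 2. *Jak1* and *Tyk2*, the kinases that bind the IL-10 receptor chains, had log2 fold changes of 0.14 and 0.26. *Stat3*, through which IL-10, IL-6 and IL-21 signal, was at 328 and 321 CPM in WT and 459 and 388 CPM in cKO, with a log2 fold change of 0.38 and an edgeR adjusted p = 0.0973. It was called without the low-count filter, with the replicate block, without cKO 1 and without cKO 2. *Socs3*, the feedback inhibitor induced by STAT3, had 943 and 836 counts in WT and 1001 and 484 in cKO, with a log2 fold change of -0.17 (edgeR adjusted p = 0.771), and was called only without cKO 1. *Ebi3*, which pairs with *Il27* in IL-27, had 11 and 8 counts in WT and 37 and 16 in cKO and did not pass (edgeR adjusted p = 0.102) except without the low-count filter, with the replicate block and without cKO 2, while *Il27* had at most 1 count.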

How the data were processed

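RNA from sorted splenic CD4+ T cells was sequenced in 4 libraries. The authors aligned reads to mm10 with HISAT2 2.1.0, counted them per gene symbol with HTSeq 0.11.1 (versions from the submitters' processing notes) and deposited raw counts. The annotation and the strand setting are not given in the sources used here. Genes were placed with GENCODE M21 (GRCm38), and level per kilobase uses its exonic length.

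The counts were tested in R 4.3.3 with edgeR 4.0.16: the filterByExpr filter, TMM scaling and a two-sided quasi-likelihood F test of genotype label, with p-values adjusted by Benjamini and Hochberg over the 12403 genes that passed. Called means an adjusted p under 0.05. "Rose" and "fell" are used of called genes. The SE is the absolute log2 fold change over the square root of F, and intervals are at a level of 0.95. DESeq2 1.42.0 was an alternative. The procedure was tested on simulated data in which every gene had the same spread. It called 0 genes where none differed, and recovered 26.1% of changes of 1.5-fold, 78.2% of 2-fold and 99.0% of 4-fold. At 4-fold, 13 of 208 calls were false. The real cKO replicates differed more than the WT replicates (chi-square per degree of freedom 6.68 against 2.83), which the simulation did not include. With 2 libraries against 2, an exact permutation test cannot go below 0.333, so p-values rest on the spread that edgeR shares across genes. They measure the spread between these libraries only. HTSeq summary lines stayed out of all tests; their largest, reads outside features, is given in the report. Depth limits the genes under about 20 counts.

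The gene list, the marker lists and the list of signalling genes were chosen with earlier results of these data known. Genes were named by rule: every one of the 72 that passed the filter, those that did not pass but had at least 10 counts in a library, and the signalling genes that were called. Other genes named were chosen for their known role or after their values were seen.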

Additional observations from a re-analysis of the deposited data

How the results depend on the processing

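*Il10ra* was called under every alternative run. Over all genes, 533 were called. Removing the low-count filter gave 1367, the replicate block 1165, an adjusted p under 0.01 gave 153 and a minimum change of 1 on the log2 scale gave 286. Leaving out a library gave 481 (WT 1), 180 (WT 2), 1469 (cKO 1) and 1783 (cKO 2). Of the receptor chains 1 was called, 5 without the filter, 4 with the replicate block (*Il10ra*, *Il12rb2*, *Il18r1* and *Il18rap*), 2 after thinning and between 1 and 5 with a library left out (3 without cKO 1, 5 without cKO 2). Ligands and the mixed group each went from 0 calls to 1 without the filter and ran between 0 and 1 with a library left out (1 without cKO 2). Of the signalling genes 2 were called, 5 without the filter, 4 with the replicate block, 1 in DESeq2, 0 at an adjusted p under 0.01, 1 at that minimum change, and between 0 (without WT 2) and 8 (without cKO 1) with a library left out. Why the counts moved was not tested.

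The sign changed only with a library left out, and only in genes that were not called: *Il10rb* (-0.37 to 0.14), *Il17ra* (-0.031 to 0.14), *Il1rl1* (-0.76 to 0.66), *Il27ra* (-0.19 to 0.043) and *Il6ra* (-0.094 to 0.055). Of 238 values of the 22 genes under alternatives, 213 kept their direction and side of the threshold, 18 newly passed it and 7 changed sign. A fit without a library leaves 1 in that genotype, which is assumed to vary like the others. Same-numbered libraries share only a number, and their deviations from the group means correlated by 0.0642 across genes. Genes at a few counts, such as *Il10* and *Il1r2*, are limited by depth.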

Other observations

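The surroundings of *Il10ra* were looked at after its value was seen. Of the 6 tested genes within 250 kb on either side, 1 was called, against 4.30% of all tested genes. This was *Jaml*, which encodes a junctional adhesion molecule of leukocytes and lies 145303 bases away. It went the other way, from 26.2 CPM in WT to 5.63 CPM in cKO, with a log2 fold change of -2.23 and an edgeR adjusted p = 0.00196, and it was called in all 11 alternatives. *Cd3e*, which encodes a subunit of the T cell receptor complex and lies 244210 bases away, had a log2 fold change of 0.12 (edgeR adjusted p = 0.663). The nearest tested gene, *BC049352*, 3817 bases away, was at 1.05 CPM in WT and 2.30 CPM in cKO and was not called (edgeR adjusted p = 0.248).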
